A study of Mus musculus with 5 samples.

Results

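The netrin and Slit guidance genes are 10 genes chosen by name from the 23857 genes of a table of TPM (transcript abundance corrected for transcript length and library total). They are the netrins Ntn1 and Ntn4, the netrin receptors Dcc, Neo1, Unc5b and Unc5c, the slits Slit2 and Slit3, and the Slit receptors Robo1 and Robo2. Ntn1 had been noted as higher in the comparison described here, so its difference between the groups is given as a description and without a test. The other members were taken for their place in the family, with earlier results of these data known. All 10 were listed in the table and passed the filter on low values (at least 1 TPM in at least 2 libraries).

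RNA was sequenced from stromal cells of the oviduct, or fallopian tube, that had been sorted for YFP, with 1 library for each young adult female mouse. The controls, mice 2 and 3, were Pdgfra-Cre;R26Y. Mice 1, 2 and 3 of the other group were Pdgfra-Cre;Esr1(fl/fl);R26Y, in which the same recombinase acts on a floxed gene of estrogen receptor alpha. Both groups therefore carried Pdgfra-Cre, which is driven by the promoter of a mesenchymal gene, and the R26Y reporter that Cre switches on, so a cell was sorted because Cre had acted in it or in a precursor of it, whatever its type at the time of sorting.

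Netrins are secreted proteins related to laminins. Netrin-1 attracts growing axons and cells through DCC and neogenin and repels them through UNC5 receptors, and UNC5 receptors and DCC can also promote cell death when no ligand is bound. Slits are large secreted proteins that repel through ROBO receptors, and both systems also act outside the nervous system, in blood vessel growth, epithelial branching and cell adhesion.

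Esr1 itself did not separate the groups. It was at 83.3 and 77.6 TPM in control mice 2 and 3, against 28.9, 85.0 and 170 TPM in mice 1, 2 and 3 labelled knockout, so it lay below both controls in mouse 1 only. A level summed over the whole gene does not show whether a floxed exon is missing from its transcripts, so these values do not measure the deletion. Every direction below therefore compares libraries labelled knockout with controls. The relative depth, estimated from steps in the low values, ran from 48.0% of control mouse 2 in knockout-labelled mouse 1 to 81.9% in mouse 2 of that group. The sorted cells had the markers of stroma, with Pdgfra between 165 and 298 TPM and no stromal marker at 0, and they also had those of epithelium, whose lowest value among 10 markers was 9.47 TPM. The summed level of the epithelial markers was 3065 and 3334 TPM in the controls, 2163 TPM in knockout-labelled mouse 1, and 12066 and 13169 TPM in mice 2 and 3. Most of that sum was Ovgp1, the oviductal glycoprotein, and the other 9 markers summed to 791 and 871 TPM in the controls and to 641, 1410 and 1912 TPM in knockout-labelled mice 1, 2 and 3. In RNA of a sorted fraction, a change in the share of a cell type and a change in RNA per cell cannot be told apart.

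Promoter windows from RefSeq (build GRCm38.p6, 250 bases before to 50 after a transcription start) were matched for 8 of the 10 members. The windows of Ntn4, Robo1 and Unc5c are shown because these members, with Ntn1, were the ones whose groups did not overlap. Each reads 5′ to 3′ on the plus strand, which is the strand of all 3 genes, and capitals mark GGTCA or its reverse complement TGACC, the core letters that estrogen receptors and several other nuclear receptors bind. The Ntn4 window is chr10:93640799-93641098, the Robo1 window, for 1 of the annotated starts, is chr16:72662899-72663198, and the Unc5c window is chr3:141465314-141465613.
Ntn4: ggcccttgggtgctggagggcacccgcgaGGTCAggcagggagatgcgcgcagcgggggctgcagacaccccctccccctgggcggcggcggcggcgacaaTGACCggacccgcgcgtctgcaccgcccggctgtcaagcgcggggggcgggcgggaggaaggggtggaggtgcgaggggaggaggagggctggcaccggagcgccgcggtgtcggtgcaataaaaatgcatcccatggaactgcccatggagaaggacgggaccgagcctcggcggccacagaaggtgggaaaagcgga
Robo1: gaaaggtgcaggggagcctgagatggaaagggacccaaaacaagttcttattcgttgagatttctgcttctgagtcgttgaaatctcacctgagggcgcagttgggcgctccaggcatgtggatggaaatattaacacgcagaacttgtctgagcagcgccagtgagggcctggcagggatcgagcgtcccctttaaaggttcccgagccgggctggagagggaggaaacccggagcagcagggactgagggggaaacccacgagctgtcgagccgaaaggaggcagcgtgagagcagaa
Unc5c: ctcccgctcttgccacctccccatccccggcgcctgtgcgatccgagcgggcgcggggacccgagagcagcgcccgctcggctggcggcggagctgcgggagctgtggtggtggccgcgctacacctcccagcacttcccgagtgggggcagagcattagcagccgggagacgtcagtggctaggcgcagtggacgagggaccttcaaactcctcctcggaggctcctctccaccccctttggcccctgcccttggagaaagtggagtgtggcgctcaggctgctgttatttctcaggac
The core letters were present in the window of 1 of the 8 members, Ntn4, with their first bases 221 and 149 bases upstream of the start, and in 40.5% of all 32851 windows. The full palindrome GGTCANNNTGACC, in which the core letters stand at both ends, was in none of the 8 members and in 0.070% of all windows. The windows of Ntn4, Robo1 and Unc5c were 72.0%, 57.0% and 68.3% G and C, where the median over all windows was 52.7%. A match of letters is a description of the sequence only.

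The comparison asked whether these ligands and receptors differ in oviductal stroma when Esr1 is targeted in it. None of the 9 members other than Ntn1 had an adjusted p under 0.05 (limma, Benjamini-Hochberg over 19292 tested genes), where 0.0259% of all tested genes did. An unadjusted p under 0.05 was reached by 2 of these 9 on the higher side and 1 on the lower, where 3.7% and 9.87% of all genes were so. The groups did not overlap for 3 members that were higher in the libraries labelled knockout, Ntn1, Ntn4 and Robo1, and for 1 that was lower, Unc5c. Over all tested genes 11.9% were higher and 21.9% lower without overlap. Since the members were chosen with this contrast in view, nothing is read from these shares. The median log2 fold change of the 9 members other than Ntn1 was 0.24, and that of all tested genes was -0.022. For the same reason nothing is read from these medians.

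**Figure D1:**
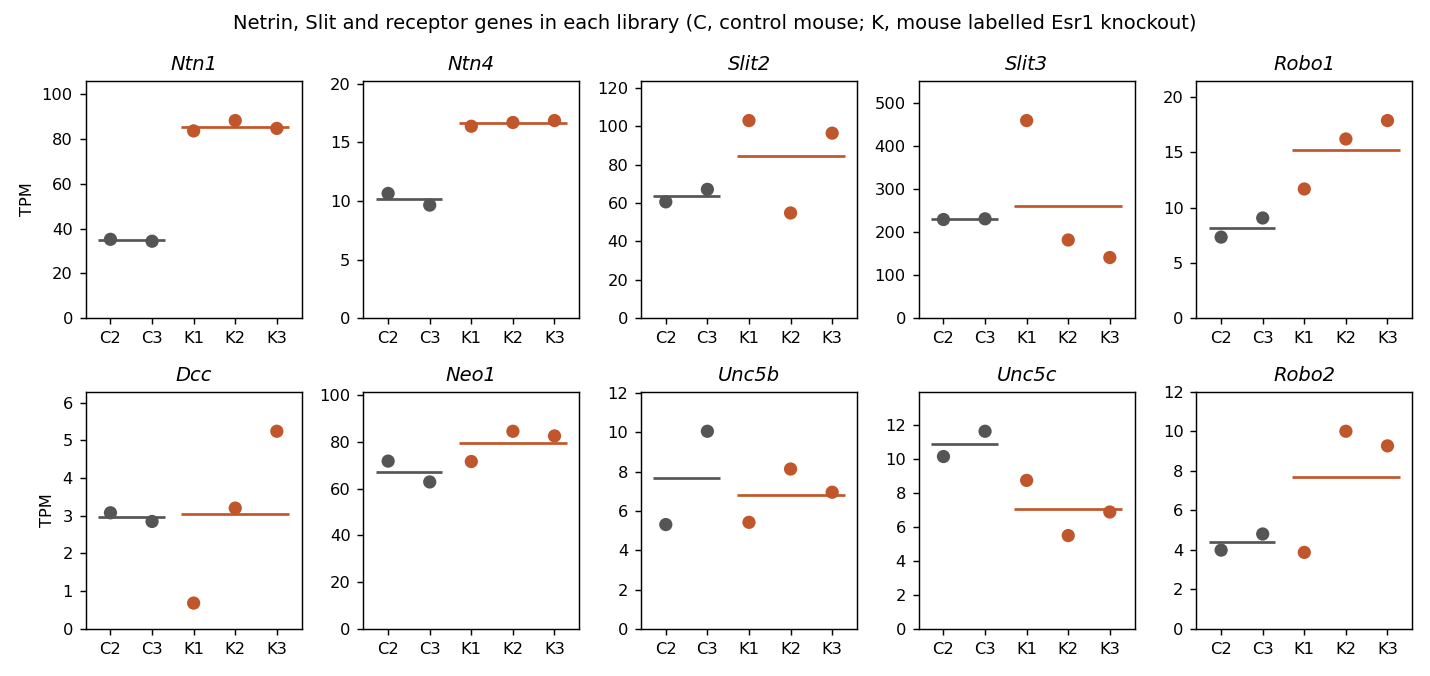
TPM (vertical axes, starting at 0) of the 10 genes in control mice 2 and 3 (grey, C2 and C3) and in mice 1, 2 and 3 labelled Esr1 knockout (orange, K1 to K3), with lines at the group means. Ntn1 and Ntn4 form a tight group above the controls in all 3 orange libraries. Slit3 in K1 stands apart from K2 and K3, and Dcc is lowest in K1 and highest in K3.

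Netrin-1, the best known secreted netrin, had 35.2 and 34.4 TPM of its transcript Ntn1 in control mice 2 and 3. It was at 83.6, 88.3 and 84.8 TPM in knockout-labelled mice 1, 2 and 3. The 3 values lay close together and far above both controls. The control mean was 34.8 ± 0.604 TPM (SD, n = 2) and that of the other group 85.6 ± 2.41 TPM (SD, n = 3), a ratio of 2.46. In the fit to all genes Ntn1 had a log2 fold change of 1.27 (SE, standard error, 0.15). It was 1.24 for mouse 1 alone set against the control mean. Between about 1803 and 5732 reads lay behind each of these values.

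Ntn4 encodes netrin-4, which is found in basement membranes, where it binds laminin. It was at 10.6 and 9.65 TPM in controls, against 16.4, 16.7 and 16.9 TPM in knockout-labelled mice 1, 2 and 3. All 3 were again above both controls, with a smaller step than for Ntn1. Controls averaged 10.1 ± 0.705 TPM (SD, n = 2), the other group 16.6 ± 0.247 TPM (SD, n = 3). Ntn4 had a log2 fold change of 0.66 (SE 0.18, limma, adjusted p 0.222). It did not pass the threshold.

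Ntn1 made up most of the transcripts of the secreted netrins, which are Ntn1, Ntn3, Ntn4 and Ntn5. Its share of their summed TPM was 67.0% and 65.7% in the controls and 79.0%, 80.4% and 80.2% in knockout-labelled mice 1, 2 and 3. The sum itself was 52.6 and 52.3 TPM in the controls and 106, 110 and 106 TPM in the other group. The sum and the share of Ntn1 in it were higher in each library labelled knockout. Not every gene of the sum was higher. Ntn4 was above and Ntn5 below both controls in each of these libraries. Ntn3 lay between the controls in mouse 1 and below both in mice 2 and 3. Ntn1 had been noted as higher beforehand and made up most of the sum. The sum, the share and the ratios of Ntn1 to other genes are therefore not separate from its own difference. The ratio of Ntn1 to Ntn4 was 3.31 and 3.56 in the controls and 5.11, 5.29 and 5.03 in the libraries labelled knockout.

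**Figure D2:**
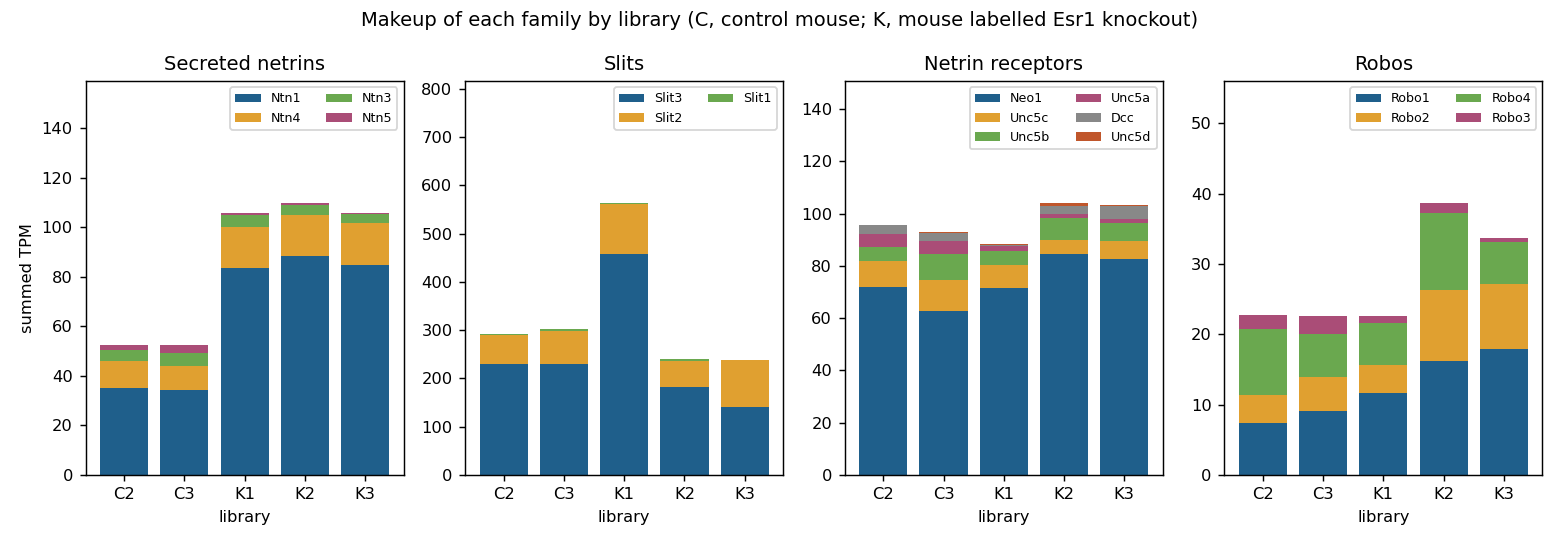
Summed TPM (vertical axes) of secreted netrins, slits, netrin receptors and Robo genes in each library, with 1 colour per gene. The netrin bars of the knockout-labelled libraries reach 106 to 110 TPM against 52.3 to 52.6 TPM in controls, the Slit bar of K1 stands at 563 TPM, and the Robo bars of K2 and K3 exceed those of the other 3 libraries.

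Neo1 was the most abundant netrin receptor. It encodes neogenin, which binds netrins and the repulsive guidance molecules (RGMs). It was at 71.8 and 62.8 TPM in controls, against 71.6, 84.5 and 82.5 TPM in knockout-labelled mice 1, 2 and 3. Mice 2 and 3 lay above both controls and mouse 1 between them. Neo1 had a log2 fold change of 0.24 (SE 0.16, limma, adjusted p 0.526), which was 0.14 without control mouse 3 and 0.10 after quantile normalization.

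With ligand and receptor on the same length-corrected scale, Ntn1 stood at 0.491 and 0.547 of the Neo1 level in the controls. In knockout-labelled mice 1, 2 and 3 it stood at 1.17, 1.04 and 1.03 of it. Ntn1 was thus the less abundant transcript of the pair in both controls and the more abundant in the other 3 libraries.

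Unc5c, a receptor for repulsion by netrin-1, had the opposite direction to Ntn1. It was at 10.2 and 11.6 TPM in controls, against 8.75, 5.50 and 6.89 TPM in knockout-labelled mice 1, 2 and 3, all below both controls. Controls averaged 10.9 ± 1.05 TPM (SD, n = 2), the other group 7.05 ± 1.63 TPM (SD, n = 3). Unc5c had a log2 fold change of -0.58 (SE 0.24, limma, adjusted p 0.368), which did not pass. The ratio of Ntn1 to Unc5c was 3.47 and 2.95 in the controls and 9.56, 16.0 and 12.3 in the libraries labelled knockout.

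Unc5b, a netrin receptor best known from endothelial cells, did not separate the groups. It was at 5.31 and 10.1 TPM in controls, against 5.43, 8.14 and 6.96 TPM in knockout-labelled mice 1, 2 and 3. The controls bracketed all 3 of the other libraries and differed from each other more than those did. Unc5b had a log2 fold change of -0.11 (SE 0.31, limma, adjusted p 0.882), and its sign depended on the libraries and weights used.

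Dcc, the receptor through which netrin-1 attracts axons, was the least abundant member in every library. It was at 3.08 and 2.85 TPM in the controls. It was at 0.68, 3.20 and 5.24 TPM in knockout-labelled mice 1, 2 and 3. The group thus spread to both sides of the controls, and its highest value was 7.65 times its lowest, the widest range of any member. About 46 reads lay behind the value of mouse 1. Dcc had a log2 fold change of -0.16 (SE 0.53, limma, adjusted p 0.894), and it was 0.37 without mouse 1 and 0.12 after quantile normalization.

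Neo1 accounted for 74.9% and 67.5% of the summed TPM of Dcc, Neo1 and Unc5a to Unc5d in the controls and for 80.8%, 81.3% and 79.8% in knockout-labelled mice 1, 2 and 3. The 4 Unc5 genes together accounted for 21.8% and 29.5% in the controls and for 18.4%, 15.6% and 15.1% in the other libraries. Their sum was 20.9 and 27.4 TPM in the controls and 16.3, 16.2 and 15.6 TPM in knockout-labelled mice 1, 2 and 3. The receptors of the repulsive type were therefore the smaller part of the pool in every library, and smaller still in those labelled knockout.

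Slit3 was the most abundant of the 10 members in all 5 libraries. It was at 229 and 231 TPM in controls, against 459, 182 and 141 TPM in knockout-labelled mice 1, 2 and 3. Mouse 1 was far above both controls and mice 2 and 3 were below both, so the libraries labelled knockout stood on both sides of the controls. Controls averaged 229.9 ± 1.10 TPM (SD, n = 2), the other group 260.4 ± 173 TPM (SD, n = 3). Slit3 had a log2 fold change of -0.016 (SE 0.46, limma, adjusted p 0.988). It was -0.52 without mouse 1, 0.33 without mouse 3 and 0.032 under median-of-ratios scaling.

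Slit2 was at 60.6 and 67.1 TPM in controls, against 103, 54.8 and 96.3 TPM in knockout-labelled mice 1, 2 and 3. Mice 1 and 3 lay above both controls and mouse 2 below both. Slit2 had a log2 fold change of 0.35 (SE 0.28, limma, adjusted p 0.575). It was 0.19 without knockout-labelled mouse 1, 0.64 without mouse 2 and 0.23 without mouse 3, and 0.20 after quantile normalization and 0.079 with library weights. The ratio of Slit3 to Slit2 was 3.78 and 3.44 in the controls and 4.46, 3.31 and 1.46 in knockout-labelled mice 1, 2 and 3. The pair did not move as a unit across libraries: mouse 3 had the lowest Slit3 of all 5 libraries and one of the higher Slit2 values.

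Robo1, a Slit receptor, was at 7.34 and 9.07 TPM in controls, against 11.7, 16.2 and 17.9 TPM in knockout-labelled mice 1, 2 and 3. All 3 lay above both controls, mouse 1 by the least. Controls averaged 8.21 ± 1.22 TPM (SD, n = 2), the other group 15.3 ± 3.21 TPM (SD, n = 3). Robo1 had a log2 fold change of 0.81 (SE 0.24, limma, adjusted p 0.261). It was 0.98 without mouse 1, with an adjusted p of 0.0370 (limma), while over all its alternatives the adjusted p ran from 0.0321 to 0.872.

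Robo2, a second Slit receptor, was at 3.99 and 4.80 TPM in controls, against 3.87, 10.002 and 9.26 TPM in knockout-labelled mice 1, 2 and 3. Mouse 1 was just below both controls, and mice 2 and 3 were far above them. Robo2 had a log2 fold change of 0.61 (SE 0.38, limma, adjusted p 0.498). Without mouse 1 it was 0.98 (limma, adjusted p 0.0487), without mouse 2 it was 0.39, and over all its alternatives the adjusted p ran from 0.0487 to 0.937.

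Robo1 and Robo2 lie on chromosome 16 in GRCm38.p6, at chr16:72027518-73047491 and chr16:73891976-75447443. They are separated by 844 kb that hold 5 annotated genes, 0 of them protein-coding. The ratio of Robo1 to Robo2 was 1.84 and 1.89 in the controls, 1.62 and 1.93 in knockout-labelled mice 2 and 3, and 3.02 in mouse 1. The summed level of Robo1 to Robo4 was 22.7 and 22.6 TPM in the controls, 22.7 TPM in knockout-labelled mouse 1, and 38.6 and 33.7 TPM in mice 2 and 3.

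Of the 9 members other than Ntn1, 2 passed an adjusted p of 0.05 (limma) when knockout-labelled mouse 1 was left out, Robo1 and Robo2, where 7.98% of the 19106 genes then tested passed. With weights for library quality 1 of them passed, Robo1, where 3.4% of all genes did. Neither count is read as support, since the list was chosen with this contrast in view. Mouse 1 was the library in which Dcc, Slit3 and Robo2 went against mice 2 and 3. For Ntn1 and Ntn4 the 3 mice lay together.

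**Figure D3:**
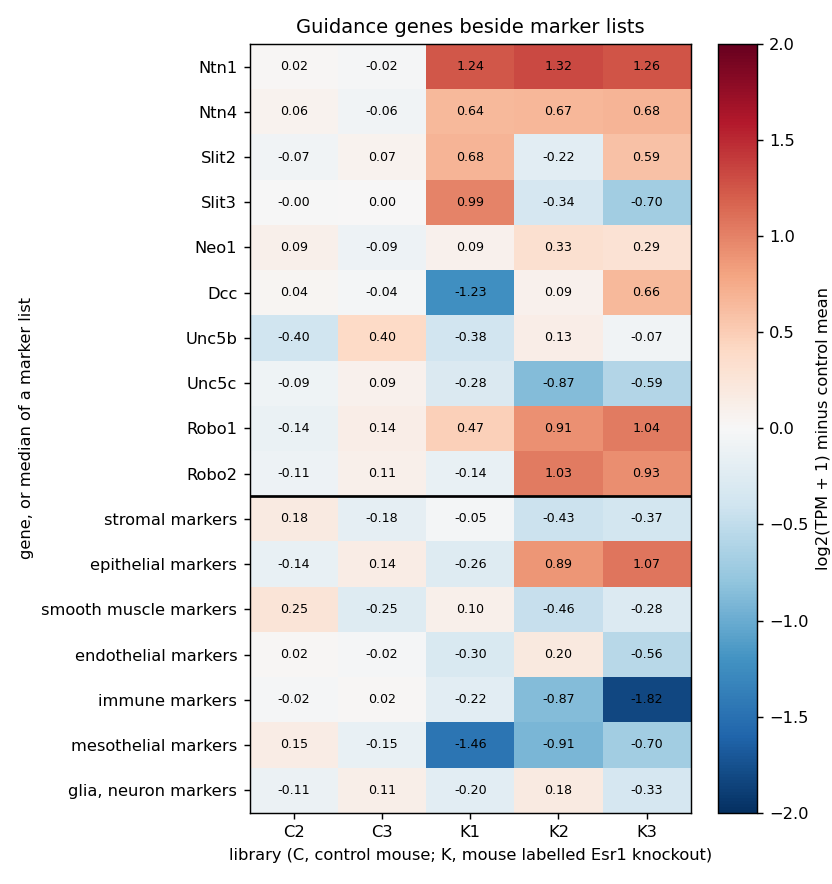
Difference of log2(TPM + 1) from the control mean in each library (columns) for the 10 genes and for the median of 7 lists of cell type markers (rows below the line), printed in each cell. Ntn1 and Ntn4 have like values in K1, K2 and K3. Robo2 and the epithelial markers are both high in K2 and K3 and not in K1.

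The levels of cell type markers differed among the same libraries. Of the 10 epithelial markers, 0 were above both controls in knockout-labelled mouse 1, and 9 were in each of mice 2 and 3, the libraries in which Robo2 was high. The median epithelial marker stood at -0.26, 0.89 and 1.07 on the log2 scale relative to the control mean in mice 1, 2 and 3, where Robo2 stood at -0.14, 1.03 and 0.93 and Robo1 at 0.47, 0.91 and 1.04. Ntn1 was at 1.24, 1.32 and 1.26 and Ntn4 at 0.64, 0.67 and 0.68 in the same mice. The part of the epithelial markers in the values of these 4 genes was not tested.

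The stromal markers had a median of -0.045, -0.43 and -0.37 in knockout-labelled mice 1, 2 and 3, and Unc5c stood at -0.28, -0.87 and -0.59. Of the 10 stromal markers, 4, 6 and 7 were below both controls in mice 1, 2 and 3, and 4, 3 and 2 were above both. The part of the stromal markers in the Unc5c values was not tested. Their sum was 23830 and 19257 TPM in the controls and 16387, 12913 and 14970 TPM in the other libraries, and none was at 0. Of the 8 endothelial markers, 1, 5 and 0 were above both controls in mice 1, 2 and 3, and 5, 0 and 7 were below both. The endothelial sum was 212 and 237 TPM in the controls and 182, 266 and 160 TPM in knockout-labelled mice 1, 2 and 3. The glial and neuronal markers, relevant to the neuronal receptor Dcc, had sums of 18.4 and 20.4 TPM in the controls and of 16.2, 45.8 and 86.4 TPM in knockout-labelled mice 1, 2 and 3, with none at 0 in all libraries. Dcc was also lowest in mouse 1 and highest in mouse 3, and the part of these markers in it was not tested.

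Ordered by mean TPM over the 5 libraries, the members ran from Slit3 (248 TPM) through Slit2 (76.3), Neo1 (74.6) and Ntn1 (65.3) to Ntn4 (14.0), Robo1 (12.4), Unc5c (8.59), Unc5b (7.18), Robo2 (6.39) and Dcc (3.01). The first place of Slit3 and the last place of Dcc held in all 5 libraries, and Ntn1 exceeded Ntn4 in all 5. Neighbours within the middle ranks were not separated: Slit2 exceeded Neo1 in 3 of 5 libraries, Neo1 exceeded Ntn1 in 2, Robo1 exceeded Unc5c in 3, and Unc5c exceeded Unc5b in 3. Ntn1 had rank 4 of 10 in both controls and rank 3, 2 and 3 in knockout-labelled mice 1, 2 and 3. The mean level of Ntn1 was above that of 91.2% of the listed genes.

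The genes whose pattern over the 5 libraries was most like that of Ntn1, among 12607 genes with a mean of at least 5 TPM, were Aff2, Abat and Fgfr2. Likeness was the root mean square difference of log2(TPM + 1) after each gene was centred on its mean, and it was 0.067, 0.081 and 0.11. Fgfr2, a receptor for fibroblast growth factors, was at 15.7 and 18.4 TPM in controls, against 36.7, 43.1 and 43.0 TPM in knockout-labelled mice 1, 2 and 3. Abat, the enzyme that breaks down the transmitter GABA, was at 39.8 and 35.6 TPM in controls, against 86.2, 83.5 and 84.8 TPM in the other libraries. Aff2, a nuclear protein gene, was at 8.33 and 8.09 TPM and at 18.3, 21.7 and 20.9 TPM. They were chosen for this likeness, so their differences are descriptions.

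**Figure D4:**
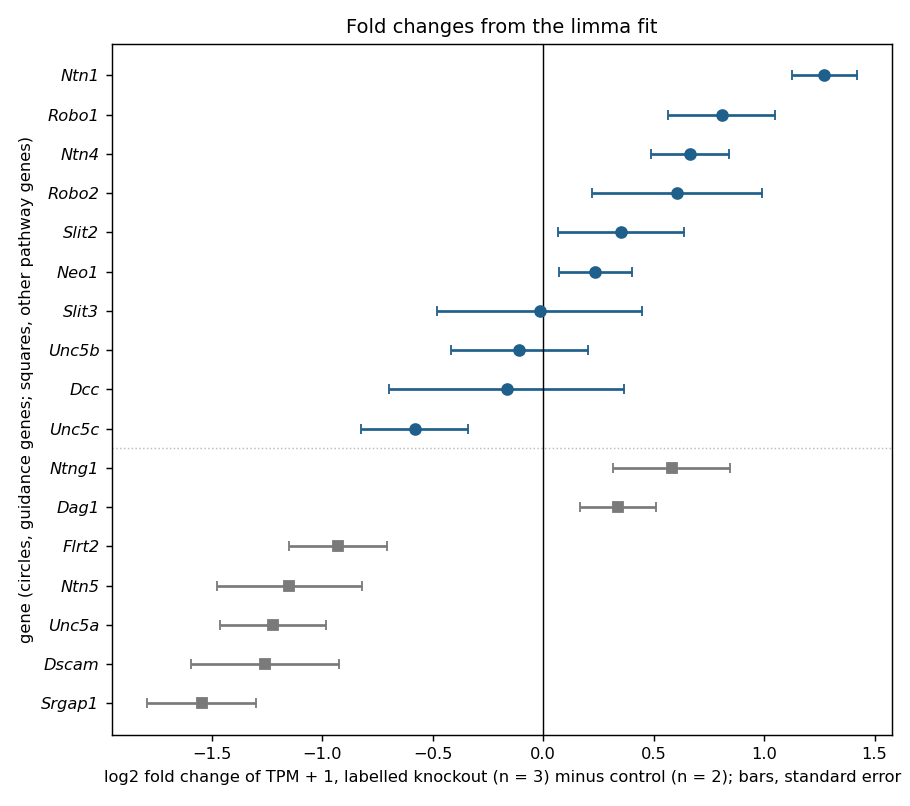
Log2 fold change of TPM + 1 (horizontal axis, knockout-labelled minus control, bars are standard errors) for the 10 guidance genes (circles) and the named genes of the wider pathway (squares). Ntn1, at 1.27, is farthest to the right, and Srgap1, at -1.54, is farthest to the left.

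The wider pathway was described with 58 other genes listed by textbook role, of which 56 were tested. Of these, 0 were past an adjusted p of 0.05 in either direction (limma), and an unadjusted p under 0.05 was reached by 0 higher and 11 lower genes, where 3.7% and 9.87% of all tested genes were so. The groups did not overlap for 2 of the 56 that were higher and 15 that were lower, where 11.9% and 21.9% of all tested genes were so. The median log2 fold change was -0.037, close to the -0.022 of all tested genes. By role, the genes below both controls in all 3 libraries were 1 of 4 further netrins, 4 of 5 further netrin receptors, 5 of 6 RGM and FLRT genes, 1 of 3 further slits and Robo genes, 0 of 5 Slit coreceptors and binders, 1 of 14 Robo effectors and 3 of 19 netrin effectors. The median log2 fold changes of these roles, in the same order, were -0.24, -0.74, -0.72, -0.41, -0.026, 0.025 and 0.052. These are descriptions, and no role was tested against the rest. Fewer genes reached 1 TPM in the libraries labelled knockout, 17148, 18190 and 15841 in mice 1, 2 and 3 against 19061 and 19432 in the controls. The part of this in the lower pathway genes was not tested.

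Among the receptors, Unc5a, a further UNC5 receptor, was at 5.15 and 5.04 TPM in controls, against 1.71, 1.67 and 1.46 TPM in knockout-labelled mice 1, 2 and 3. Its log2 fold change was -1.22 (SE 0.24, limma, adjusted p 0.160). Dscam, a cell adhesion molecule that also binds netrin-1, was at 5.03 and 2.90 TPM in controls, against 1.00, 1.56 and 0.63 TPM in the other libraries, with a log2 fold change of -1.26 (SE 0.33, limma, adjusted p 0.219). Both lay below the controls in all 3 libraries, and neither passed the threshold.

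Among the ligands, Ntn5, a further netrin, was at 2.23 and 3.07 TPM in controls, against 1.11, 0.62 and 0.28 TPM in knockout-labelled mice 1, 2 and 3, the opposite direction to Ntn1 and Ntn4. Its log2 fold change was -1.15 (SE 0.33, limma, adjusted p 0.239), and it was -1.98 with a pseudocount of 0.1 and -0.67 after quantile normalization. Ntng1, which encodes the membrane-anchored netrin-G1, was at 2.09 and 3.00 TPM in controls, against 3.48, 4.70 and 4.72 TPM in the other libraries (log2 fold change 0.58, limma adjusted p 0.389, and 0.90 after quantile normalization). Flrt2, a membrane protein that binds UNC5 receptors, was at 125 and 78.1 TPM in controls, against 51.9, 51.5 and 51.2 TPM in knockout-labelled mice 1, 2 and 3. Its log2 fold change was -0.93 (SE 0.22, limma, adjusted p 0.198), and it was -0.59 without control mouse 2, the higher of the controls.

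On the Slit side, Srgap1, a GTPase-activating protein that acts downstream of ROBO receptors, was at 12.4 and 8.79 TPM in controls, against 2.82, 2.72 and 3.27 TPM in knockout-labelled mice 1, 2 and 3. Its log2 fold change of -1.54 was the largest in size of the 56 tested pathway genes (SE 0.25, limma adjusted p 0.118). Its relatives differed from it: Srgap2 was between 29.8 and 32.6 TPM in all 5 libraries, and Srgap3 was at 14.5 TPM in both controls and at 14.4, 28.6 and 31.7 TPM in knockout-labelled mice 1, 2 and 3. These were named after their values were seen. Dag1 encodes dystroglycan, a binding partner of Slits and laminins. It was at 144 and 134 TPM in controls, against 154, 196 and 181 TPM in the other libraries. Its log2 fold change was 0.34 (limma adjusted p 0.423), and it was 0.21 after quantile normalization.

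Without knockout-labelled mouse 1, 11 of the 58 listed pathway genes passed an adjusted p of 0.05 (limma), 6 higher and 5 lower. Of all genes then tested, 7.98% passed. The lower pathway genes included Srgap1 (-1.52, limma adjusted p 0.0297) and Unc5a (-1.25, limma adjusted p 0.0458), and the higher ones included Srgap3. The count of 11 is not read as support, since the list was made with earlier results of these data known. In each of knockout-labelled mice 2 and 3, 9 of 10 epithelial markers were above both controls. Their part in this count was not tested. Over all alternatives the adjusted p of Srgap1 ran from 0.0257 to 0.730 and that of Unc5a from 0.0395 to 0.817. Beside the lower values of Srgap1 and Unc5a, 4 of 6 mesothelial markers were below both controls in each library labelled knockout. The other 2, Wt1 and Krt5, were above both controls in each of these libraries. The list had medians of -1.46, -0.91 and -0.70 relative to controls in mice 1, 2 and 3. It summed to 651 and 553 TPM in the controls, against 332, 447 and 471 TPM in those mice. Immune markers had sums of 4180 and 4551 TPM in the controls and of 3512, 2081 and 1175 TPM in mice 1, 2 and 3. The part of either list in the pathway values was not tested.

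**Figure D5:**
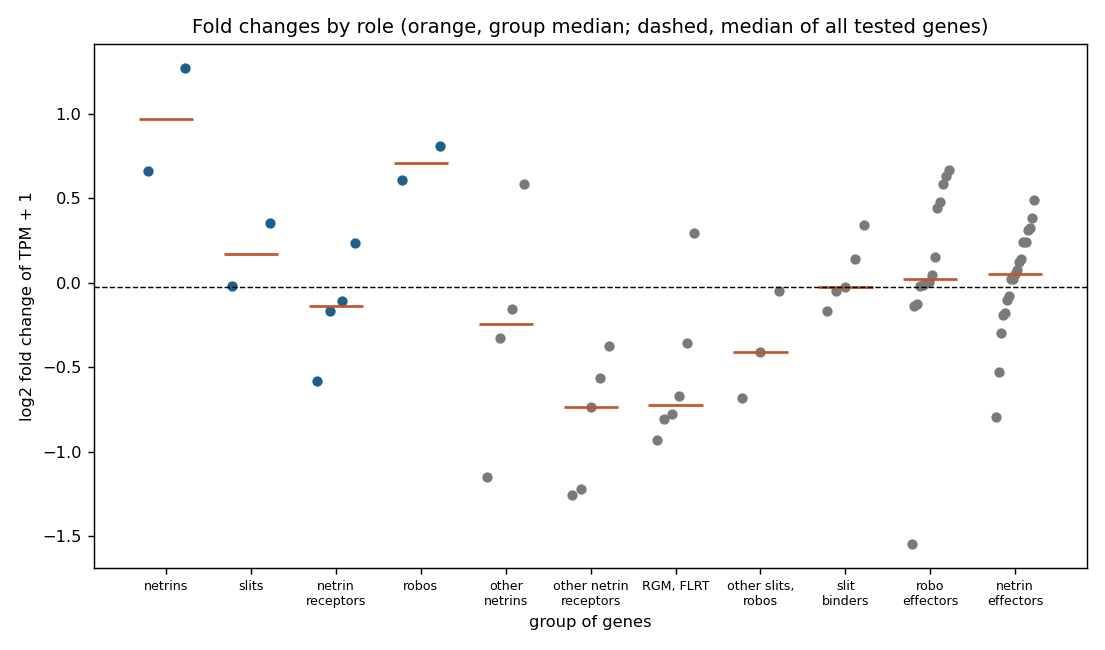
Log2 fold change of TPM + 1 (vertical axis) of every tested gene by role, with the 10 guidance genes in blue, other pathway genes in grey, group medians in orange and the median of all tested genes as a dashed line at -0.022. The role medians run from -0.74 for the further netrin receptors to 0.052 for the netrin effectors among the other pathway genes.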

How the data were processed

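RNA of sorted cells was measured in 5 libraries, 2 control and 3 labelled Esr1 knockout, grouped by the labels. The deposited values are TPM per gene, made by the authors. The table's name says that STAR was used, and the build is mm10 per the submitters' processing notes. The counter, the annotation, versions and read filters are not given in the sources used here. Each library's TPM summed to 1000000.

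From these, log2(TPM + 1) was modelled in limma 3.58.1 (R 4.3.3) by a two-sided test with genotype as the only term and a mean-variance trend in eBayes. The test covered the 19292 genes that reached 1 TPM in 2 or more libraries, with Benjamini-Hochberg adjustment over all of them and a threshold of 0.05. Fold changes on this scale understate the change of low genes. The fit was tested on simulated data.

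TPM keeps no total depth. The number of reads was approximated from the steps of low values in 1122 single-exon genes of GENCODE M21, which gave 13.5 and 8.93 reads for 1 TPM in 1 kb in the controls and 6.48, 11.1 and 9.13 reads in knockout-labelled mice 1, 2 and 3, and from the longest annotated transcript. Such reads, which carry no molecular identifier, need not be independent molecules.

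The members, gene lists and alternatives were chosen with earlier results of these data known. Ntn1 was left out of the counts of members called. Named were the 10 members, Esr1 and Pdgfra, the 3 genes nearest to Ntn1, and, of the pathway list, those past the threshold and, in each direction, up to 5 with the largest fold change, a mean of at least 1 TPM and no overlap between groups. Python 3.11.15 was used for the descriptions. Alternatives were other pseudocounts, filters, scalings and weights, the mouse number as a block, and leaving out libraries.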

Additional observations from a re-analysis of the deposited data

How the results depend on the processing

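The fit with knockout-labelled mouse 1 as the only knockout library was added after the data were seen. The Ntn1 log2 fold change of 1.27 was 1.15 with quantile normalization, 1.32 with median-of-ratios scaling and 1.22 without Rpph1 and Rn45s, 2 abundant RNAs, and lay between 1.25 and 1.29 when single libraries were left out. Where 1 control or 1 knockout library is left, it is assumed to vary like the other group.

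No member and no pathway gene passed the threshold in the fit to all libraries. With library weights 1 member other than Ntn1 (Robo1) and 3 pathway genes passed, of 656 genes in all. Leaving out 1 library gave 0 to 2 such members and 0 to 11 pathway genes, with the high values without knockout-labelled mouse 1. With Ntn1, which is not counted as tested, the members were 2 with weights or the block, and 0 to 3. The pathway median of -0.037 ran from -0.18 to 0.014 over all alternatives.

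Over all genes, 2 were called higher and 3 lower. Both counts were 0 with a pseudocount of 0.1 (unadjusted p under 0.05 for 2233 genes) and in the set averaging 5 TPM or more (1389 genes). Without a filter 1 gene was called higher, and 0 were with quantile normalization (1195 higher at an unadjusted p under 0.05) and median-of-ratios scaling (1290). The lower genes numbered 5 without Rpph1 and Rn45s. Library weights gave 260 higher and 396 lower, and mouse 1 as the only knockout library 44 and 26. Leaving out 1 library gave 0 to 1022 higher and 0 to 502 lower. At an unadjusted p under 0.05 (limma), 713 were higher and 1904 lower. The counts were 1195 and 1378 with quantile normalization, 1290 and 1710 with median-of-ratios scaling, and 643 and 746 at a mean of 5 TPM or more. They were 2827 and 2590 with weights, 3326 and 2087 with the block and 3388 and 2215 without knockout-labelled mouse 1. The majority of lower genes turned in these last 3. The block and the fit without mouse 1 are not separate checks, since their fold changes are the same.

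The mouse number as a replicate block gave 1165 higher and 693 lower genes, 1 member other than Ntn1 (Robo1) and 10 pathway genes, with Flrt2 at an adjusted p of 0.0295 (limma). Across genes, deviations of same-numbered mice from their group means had correlations of -0.060 (mouse 2) and -0.072 (mouse 3). The deviations of 2 controls are mirror images, so crossed pairs had the same sizes with opposite sign (0.072 and 0.060). These correlations therefore cannot decide whether same-numbered mice were paired. Mouse 1 has no partner, so the block gave the same fold changes as leaving it out.

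Some log2 fold changes changed sign. Dcc was 0.12 after quantile normalization, 0.074 under weights and 0.37 with the block, and -0.57 to 0.37 without single libraries. Unc5b was 0.024 with weights, 0.029 with the block, and -0.51 to 0.30 without single libraries. Slit3 was 0.032 with median-of-ratios scaling, -0.52 to 0.33 without single libraries and 0.99 with mouse 1 as the only knockout library, where Robo2 was -0.14. Esr1 was 0.15 with weights, 0.57 with the block and -0.68 to 0.57 without single libraries. Pdgfra was -0.074 with the block and -0.074 to 0.35 without single libraries. The cause was not tested. Of 289 alternative values of single named genes other than Ntn1, 251 kept their direction and side of the threshold, 19 came past it and 19 changed sign. The block and the fit without mouse 1 are both counted there, though their fold changes are the same. Depth limits Dcc most, with about 46 reads in knockout-labelled mouse 1. Of the members, Dcc alone fell below the filter of a mean of 5 TPM and has no value there.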
